A study of Mus musculus with 75 samples.

Results

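Collagens are the proteins of the extracellular matrix that are built from triple helices of alpha chains, each chain the product of a Col gene. Their messages were followed here in RNA-seq libraries of mouse gut that carry the label EGC (enteric glial cell). The members are all gene symbols of the deposited count tables that consist of Col, a number, the letter a and a number, which gave 44 of the 21076 symbols. By structure they comprised 11 fibrillar chains, 6 type IV chains of basement membranes, 6 type VI chains of beaded filaments, 9 fibril-associated chains (FACITs), 3 short-chain network chains, 2 multiplexins, 4 transmembrane chains, the anchoring fibril chain Col7a1, and Col26a1 and Col28a1. No measured value entered the choice.

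Fibrillar collagens such as types I, III and V are secreted as procollagen, trimmed outside the cell and assembled into the banded fibrils that give tissue its tensile strength. Type IV collagen forms the sheet of basement membranes, which in the enteric nervous system surrounds the ganglia, where glia and neurons meet the surrounding mesenchyme. FACITs and type VI chains sit on or between fibrils, and multiplexins such as type XVIII link basement membranes to the matrix beneath. Fibroblasts and smooth muscle cells are the usual main sources of fibrillar collagen in the gut wall, while type IV and type XXVIII chains are also known from glia of peripheral nerves.

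The 75 libraries form 16 groups and 3 experiments. All mice carried the same green fluorescent protein reporter allele, so that controls share it with every other group. In the first experiment mice were untreated and the myenteric plexus (the nerve layer between the muscle coats) and the submucosal plexus (the layer under the mucosa) were taken from colon and small intestine, with 5 libraries in each colon group and 6 in each small intestine group. In the second, mice with the reporter alone received 1 injection into the peritoneum of lipopolysaccharide (LPS, a bacterial endotoxin, from E. coli O111:B4) at 2 mg/kg or of phosphate-buffered saline (PBS), and the myenteric plexus of both regions was taken 2 h later, with 4 libraries a group. In the third, the same injections were given to Gpr37WT and Gpr37-/- mice with the reporter, called wild type and knockout below, and the myenteric plexus of both regions was taken at 24 h, with 4 to 6 libraries a group. Gpr37 encodes a receptor of glia. Ages, background strain, the layout of the deletion and the way the cells were isolated are not given in the labels. Samples of untreated and 2 h mice are named below by sex and number, and those of 24 h mice by the number of the mouse, from which both regions were often taken.

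Libraries held 1990744 to 33283346 counts (median 5724367), of which 3831 to 329722 fell on collagens. All 7 glial markers examined, Sox10 among them, had counts in every group, but so did all 9 fibroblast markers other than collagens and all 6 smooth muscle markers. In untreated colon myenteric plexus the summed level of the fibroblast list was 5179 to 19681 CPM (counts relative to the library total, scaled between libraries by the trimmed mean of M-values) and that of the glial list 6077 to 12979 CPM, so messages of other cell types were present beside those of glia. Since these are bulk samples, fewer cells of a type and less RNA per cell cannot be told apart in any result here. Gpr37 had 3 or fewer counts in 17 of 18 knockout libraries, with 9 in the remaining 1, against 0 to 158 in wild-type libraries of the same experiment. At 24 h, mitochondrial genes took 4.24% to 26.0% of counts in the 12 libraries from mice with numbers up to 10, and collagens 0.0800% to 0.654%, against 1.66% to 10.4% and 0.279% to 1.31% in the 25 libraries from mice numbered 11 and above. Those up to 10 made up 3 of 5 wild-type LPS colon libraries and 0 of 4 wild-type PBS colon libraries. In wild-type small intestine they made up 2 of 4 LPS and 1 of 6 PBS libraries. The 24 h results with LPS that changed among the higher numbers alone are therefore also given there.

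Collagen messages made up 0.0800% to 1.44% of all counts in a library. In untreated myenteric plexus the share was 0.891% ± 0.364 (SD, n = 5) in colon and 0.502% ± 0.172 (SD, n = 6) in small intestine, and in submucosal plexus 0.798% ± 0.357 (SD, n = 5) and 0.306% ± 0.172 (SD, n = 6). The share at 2 h after PBS was 0.828% ± 0.298 (SD, n = 4) in colon and 0.423% ± 0.131 (SD, n = 4) in small intestine, and 2 h after LPS 0.765% ± 0.269 (SD, n = 4) and 0.420% ± 0.199 (SD, n = 4). Colon libraries thus held more collagen message than small intestine libraries on average, and LPS at 2 h left the means close together. At 24 h the wild-type share was 1.18% ± 0.0986 (SD, n = 4) after PBS and 0.298% ± 0.148 (SD, n = 5) after LPS in colon, and 0.681% ± 0.195 (SD, n = 6) and 0.265% ± 0.130 (SD, n = 4) in small intestine. In knockouts it was 0.963% ± 0.296 (SD, n = 5) after PBS and 0.451% ± 0.193 (SD, n = 4) after LPS in colon, and 0.677% ± 0.111 (SD, n = 4) and 0.289% ± 0.164 (SD, n = 5) in small intestine. The share after LPS was below that after PBS on average in each of these 4 pairs of groups, and the groups did not overlap in wild-type colon (1.07% to 1.31% after PBS, 0.0800% to 0.423% after LPS) or knockout small intestine (0.576% to 0.799% and 0.130% to 0.539%), while the other pairs did. Among mice numbered 11 and above, with 2 to 5 libraries a group, these other pairs did not overlap either, at 0.610% to 0.931% after PBS and 0.279% to 0.444% after LPS in wild-type small intestine and 1.05% to 1.28% and 0.429% to 0.700% in knockout colon.

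The makeup of the collagen message also differed. Col4a1 and Col4a2, the chains of the type IV collagen found in nearly all basement membranes, gave 5.29% to 20.0% of collagen counts in the 24 h PBS libraries and 21.1% to 41.1% in the 24 h LPS libraries, with no overlap over both regions and both genotypes. Col1a1, Col1a2 and Col3a1, the chains of the main fibrillar collagens I and III, gave 23.9% to 60.9% after PBS and 5.97% to 35.8% after LPS in wild-type small intestine, which overlap, and 51.7% to 56.7% against 14.6% to 30.7% in wild-type colon, which do not. Among mice numbered 11 and above the wild-type small intestine groups, at 44.3% to 60.9% and 25.1% to 35.8%, did not overlap either. In knockouts these chains gave 32.4% to 58.6% after PBS and 21.5% to 42.3% after LPS in colon, and 24.5% to 51.2% and 19.8% to 48.1% in small intestine, with overlap in both. Among the higher mouse numbers the knockout colon groups, at 50.6% to 58.6% and 39.2% to 42.3%, no longer overlapped, while those of small intestine did. In untreated submucosal plexus the type I and III chains gave 55.5% to 71.0% of collagen counts, above the 28.6% to 49.8% of untreated myenteric plexus. These shares are descriptions, with no test.

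**Figure D1:**
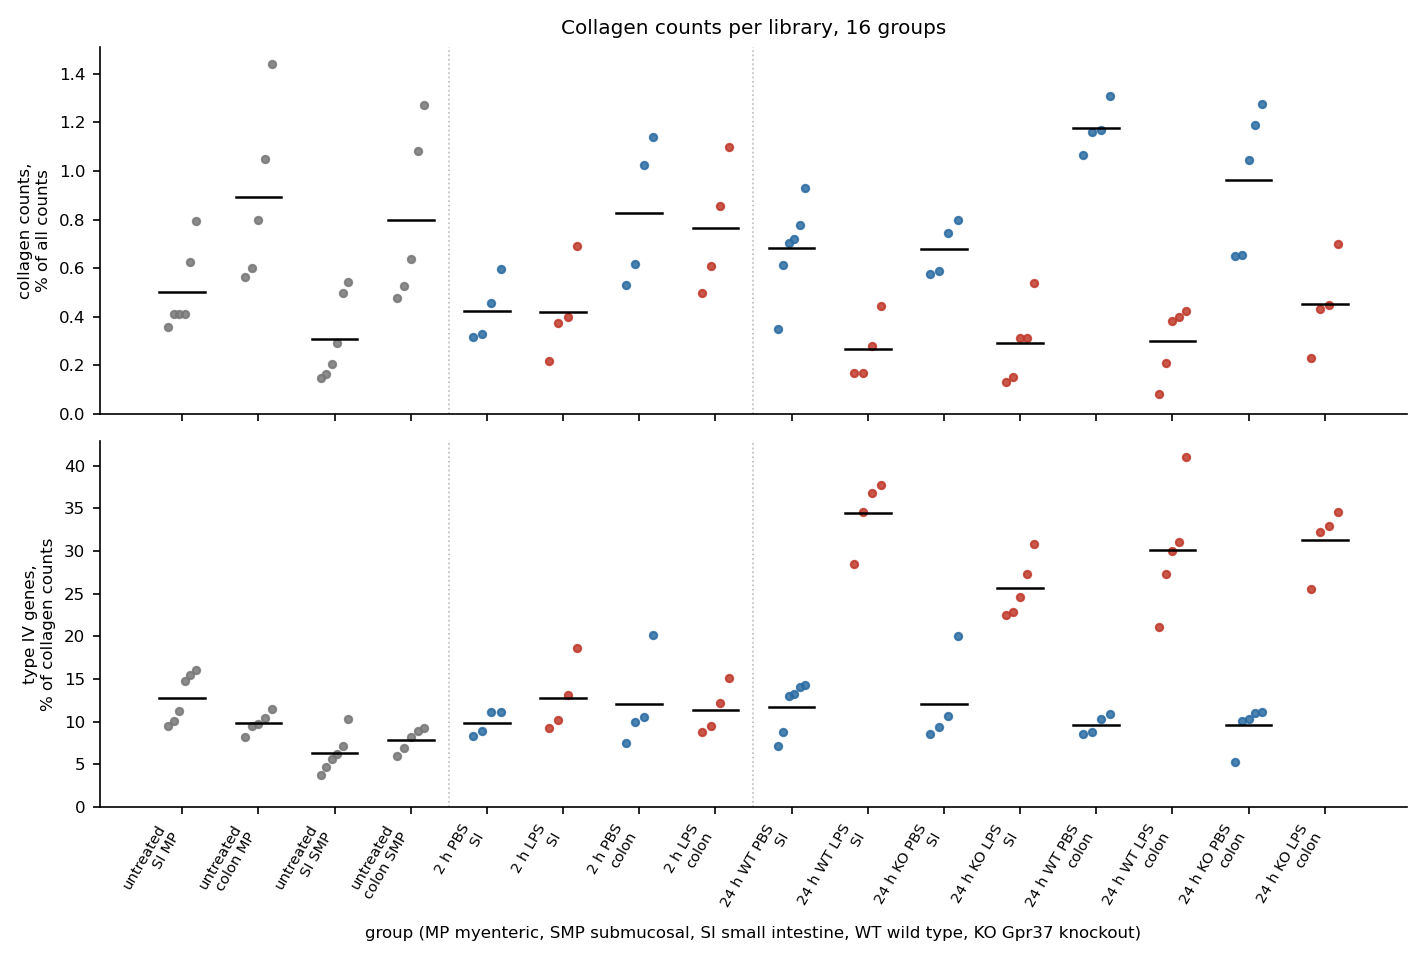
Collagen message per library in the 16 groups (x axis). Upper panel: collagen counts as a percentage of all counts; lower panel: Col4a1 and Col4a2 counts as a percentage of collagen counts; points are libraries (grey untreated, blue PBS, red LPS) and black bars group means. The 24 h LPS libraries lie at 21.1% to 41.1% in the lower panel, above all 24 h PBS libraries.

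Levels of different chains were set side by side per length, as mean CPM per kilobase of merged exon in each group. Merged exon takes in every annotated exon of a gene, so a ranking of chains depends on that length. Col3a1, the single chain of type III collagen, was the highest fibrillar chain in 16 of 16 groups, at 35.2 to 364 CPM per kilobase. Col4a1 led type IV in all 16, at 15.8 to 126, and Col6a1, a core chain of the beaded filaments, led type VI, at 33.3 to 165. The lead of Col6a1 over Col6a2 rests in part on merged lengths of 4380 and 8326 bases. In wild-type PBS colon of mouse 22, for example, Col6a2 had 28346 counts and Col6a1 20957. Col18a1, the type XVIII multiplexin whose end fragment is endostatin, stood at 13.4 to 102. Among the rest, Col8a1 led the short-chain network collagens in 14 groups (its range was 1.07 to 25.6), Col23a1 the transmembrane chains in 13 groups (0.734 to 7.03), and Col28a1 stood at 0.132 to 25.8. No single FACIT led throughout: Col9a2, a chain of the type IX collagen best known from cartilage, was highest in 8 groups, Col16a1 in 4, Col14a1 in 2, and Col12a1 and Col20a1 in 1 each. Col7a1, the anchoring fibril chain of skin, stayed between 0 and 0.110 CPM per kilobase. Partner chains of 1 molecule were also set against each other per length: Col1a1 to Col1a2, which join 2 to 1 in type I collagen, had group medians from 1.16 to 2.41, and Col4a1 to Col4a2, which also join 2 to 1, from 1.21 to 2.01. These ratios depend on the merged lengths, which were 6563 bases for Col1a1 and 12426 for Col1a2. In wild-type PBS colon of mouse 19, for example, the counts themselves were 16035 and 14159. The ratios are therefore no measure of the 2 to 1 joining of the chains.

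The genes of 3 pairs of type IV chains lie head to head in the genome and start from a shared stretch, a known feature of this family. By the GENCODE annotation on GRCm38, the starts of Col4a1 and Col4a2 on chromosome 8 lie at 11312826 and 11312805, so that the ends of the 2 genes overlap. Col4a3 and Col4a4 on chromosome 1 are 71 bases apart, and Col4a5 and Col4a6 on the X chromosome 1308 bases apart. For 35 of the 44 collagens a RefSeq window before the transcript start was at hand (38 windows, GRCm38.p6). In the 250 bases before the start, on both strands, GGGCGG (the core of the SP1 site) occurred in 57.9% of the collagen windows and in 32.7% of all 32851 windows. TATAAA occurred in 13.2% against 12.4%, CCAAT in 34.2% against 33.8%, and ACAAAG or ACAATG (the core bound by SOX proteins) in 10.5% against 25.2%. A match is no evidence of binding, and its absence from a window says nothing about a factor.

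The last 150 bases before the start are shown for 4 of the 8 genes with a window that were called lower after LPS at 24 h in both wild-type regions: Col3a1 (chr1:45311388-45311537, plus strand), Col6a3 (chr1:90843972-90844121, minus strand), Col5a1 (chr2:27886275-27886424, plus strand) and Col27a1 (chr4:63215262-63215411, plus strand). Whether these chains vary together was not tested, and the small intestine calls of Col3a1 and Col27a1 were not stable, as described below. The windows read 5′ to 3′ on the gene's strand, with capitals marking a match to 1 of the 4 motifs.
Col3a1: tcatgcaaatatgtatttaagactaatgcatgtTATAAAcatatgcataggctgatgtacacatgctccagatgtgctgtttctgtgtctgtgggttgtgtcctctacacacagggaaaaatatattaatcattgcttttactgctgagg
Col6a3: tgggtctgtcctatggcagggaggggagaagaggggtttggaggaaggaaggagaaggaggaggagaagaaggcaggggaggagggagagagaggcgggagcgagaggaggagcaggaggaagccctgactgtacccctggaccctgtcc
Col5a1: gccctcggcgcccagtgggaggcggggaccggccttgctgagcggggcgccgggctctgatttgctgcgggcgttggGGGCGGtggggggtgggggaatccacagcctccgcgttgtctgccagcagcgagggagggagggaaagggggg
Col27a1: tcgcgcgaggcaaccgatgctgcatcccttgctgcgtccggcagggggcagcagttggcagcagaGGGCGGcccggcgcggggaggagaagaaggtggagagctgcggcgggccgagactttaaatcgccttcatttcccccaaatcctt
Col3a1 has a TATAAA in its printed window, Col5a1 and Col27a1 each have a GGGCGG in a G- and C-rich stretch, and Col6a3, with long runs of purines, has none of the motifs, so these 4 windows hold no motif of the 4 in common.

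The first question was which collagens differ between colon and small intestine in unperturbed myenteric plexus. Of the 33 collagens that passed the filter on low counts in the untreated experiment, 3 were higher in colon and 0 lower, by edgeR's quasi-likelihood test at a Benjamini-Hochberg adjusted p under 0.05 over all genes tested, the rule used for every call below. Of all 14090 genes tested, 3.19% were called, 1.66% higher and 1.53% lower. The median log2 fold change of the collagens was 0.72, against 0.01 over all genes, and 25 of 33 fitted values were above 0. Col6a3, the long chain of the type VI filament, was at 157, 202, 240.1, 312 and 517 CPM in the 5 colon libraries and at 66.3 (lowest), 96.4 (median) and 126 (highest) CPM in small intestine. All colon libraries were above all small intestine libraries. Its log2 fold change was 1.54 ± 0.36 (SE, edgeR adjusted p = 0.0209). Col23a1, a transmembrane collagen, was at 12.3, 24.8, 31.3, 34.5 and 53.5 CPM in colon and 1.36 (lowest), 4.84 (median) and 15.7 (highest) CPM in small intestine, where the ranges overlap, with a log2 fold change of 2.38 ± 0.60 (SE, edgeR adjusted p = 0.0325). The third, Col6a5, rests on 37 counts in colon and 1 in small intestine, and a single colon library, male 3, held 3.51 CPM of a mean of 0.899. It was not called with DESeq2's size factors (adjusted p = 0.0506), without the filter on low counts (0.0602) or with sex as a covariate (0.0711). These calls were few and fragile: without colon male 3, or without small intestine male 1, male 3, female 2 or female 3, only 1 remained, and without small intestine female 1 there was 0. In the same comparison 7 of 9 fibroblast markers and 3 of 6 smooth muscle markers were higher in colon, with summed fibroblast levels of 5179 to 19681 CPM in colon against 3125 to 5686 CPM in small intestine; their part in the collagen difference was not tested.

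In the submucosal plexus 12 of 33 collagens were higher in colon and 0 lower. Whether the regional difference itself differed between the plexuses is given by the interaction test below, which called 2. Of all genes, 5.18% were called, 3.82% higher and 1.36% lower. The collagens' median log2 fold change was 1.22 (all genes: -0.05) and 27 of 33 were above 0. The 12 were 3 of 9 fibrillar chains, 3 of 6 type IV chains, both multiplexins, 1 of 5 type VI chains, 1 of 6 FACITs, 1 of 2 short-chain collagens and Col28a1. Among fibrillar chains, Col3a1 was at 1800.2, 1909.8, 2626, 3389 and 3708 CPM in colon and 454 (lowest), 993 (median) and 1889 (highest) CPM in small intestine. The lowest colon library lay below the highest small intestine library, and the log2 fold change was 1.31 ± 0.37 (SE, edgeR adjusted p = 0.0391), a call kept in 4 of 11 fits that each left out 1 library. Col5a3, a type V chain, was higher by 2.27 ± 0.49 on the log2 scale (SE, edgeR adjusted p = 0.00862).

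Of the basement membrane chains, Col4a1 was at 214, 254, 266, 498 and 719 CPM in colon submucosal plexus and 65.4 (lowest), 109 (median) and 182 (highest) CPM in small intestine. Every colon library exceeded every small intestine library, by a log2 fold change of 1.72 ± 0.37 (SE, edgeR adjusted p = 0.00838). Col4a2, its head-to-head neighbour, gave 1.84 ± 0.41 (SE, edgeR adjusted p = 0.01). Col18a1 was at 122, 141, 157, 467 and 598 CPM in colon and 54.0 (lowest), 87.4 (median) and 163 (highest) CPM in small intestine, with 3 of the colon libraries inside the small intestine range (log2 fold change 1.66 ± 0.41 SE, edgeR adjusted p = 0.0206). Col6a1 was at 312, 364, 469, 660.4 and 761 CPM against 115 (lowest), 152 (median) and 372 (highest) CPM. Its ranges overlapped, with a log2 fold change of 1.34 ± 0.35 (SE, edgeR adjusted p = 0.0298). Leaving out 1 library at a time kept the call of Col4a2 in 10 of 11 fits, that of Col18a1 in 7 and that of Col6a1 in 5. In a fit of these 2 groups alone, Col18a1 (edgeR adjusted p = 0.0554) and Col3a1 (edgeR adjusted p = 0.0703) were not called.

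Col12a1, a FACIT that decorates type I fibrils, was 93.8 ± 55.4 CPM in colon and 24.5 ± 11.0 CPM in small intestine (SD, n = 5 and 6), a log2 fold change of 1.94 ± 0.34 (SE, edgeR adjusted p = 0.00173). Col8a1, which forms hexagonal networks around vessels, differed by 2.63 ± 0.58 (SE, edgeR adjusted p = 0.00942). The widest gap was that of Col28a1, a chain found around glia of peripheral nerve, at 4.48, 5.55, 11.9, 15.1 and 75.2 CPM in colon and 0 (lowest), 0.557 (median) and 1.85 (highest) CPM in small intestine, a log2 fold change of 4.92 ± 0.79 (SE, edgeR adjusted p = 0.000785). The count of 12 depended on single libraries: it was 5 without colon male 3 and 6 without colon female 3, and 7, 6 and 6 without small intestine male 1, female 1 and female 2. In these samples 2 of 9 fibroblast, 2 of 6 endothelial and 1 of 7 glial markers were also higher in colon, and their part was not tested. None of the 3 collagens called in the myenteric plexus was among the 12.

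**Figure D2:**
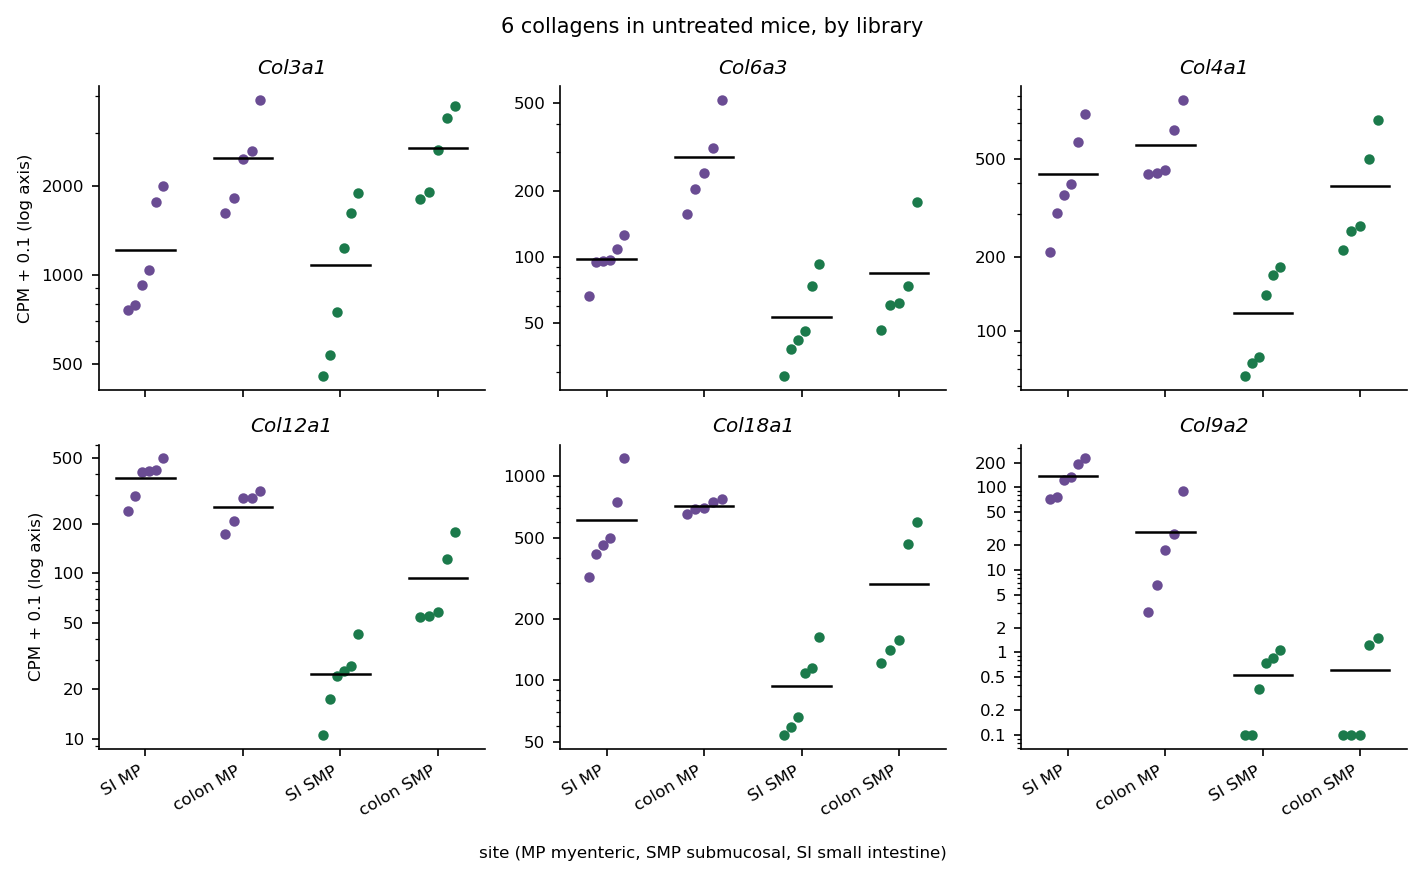
Levels of 6 collagens in the untreated groups (x axis: region and plexus), as CPM plus 0.1 on a log axis; points are libraries and bars group means. Purple points are myenteric and green points submucosal plexus; Col12a1, Col18a1 and Col9a2 have their lowest means in small intestine submucosal plexus, Col9a2 at 0.438 CPM.

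Region could be read again in PBS-injected mice. At 2 h, 0 of 32 collagens were called by edgeR between colon and small intestine, although 13 had an unadjusted p under 0.05 (10.6% of all genes), the median log2 fold change was 0.66 (all genes: 0.01) and 22 were above 0. Of all genes 0.221% were called, 0.0839% higher and 0.137% lower. DESeq2 called 4 collagens (Col28a1, Col4a1, Col6a3 and Col1a1) and 3.02% of all genes in its fit, which holds every gene with a count. Col28a1 came closest, at 40.3, 40.7, 94.1 and 103 CPM in colon and 2.65, 10.1, 15.7 and 17.5 CPM in small intestine, without overlap (log2 fold change 2.61 ± 0.59 SE, edgeR adjusted p = 0.0733). Next were Col4a1, with 1.15 ± 0.28 (SE, edgeR adjusted p = 0.0903), and Col6a3, with 1.75 ± 0.50 (SE, edgeR adjusted p = 0.159), also without overlap. Leaving out small intestine female 3 gave 1 call, that of Col4a1. Summed smooth muscle markers were 19382 to 72124 CPM in colon and 2337 to 15329 CPM in small intestine, without overlap (edgeR, 0 of 6 called, with 6 at an unadjusted p under 0.05). Fibroblast markers had medians of 8217 CPM and 3330 CPM and overlapped (edgeR, 0 of 9 called, with 4 at an unadjusted p under 0.05), and mesothelial markers were at 0 to 93.4 CPM in colon and 296 to 686 CPM in small intestine (edgeR, 0 of 4 called, with 4 at an unadjusted p under 0.05). Their part in the collagen values was not tested.

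At 24 h after PBS, wild-type colon exceeded wild-type small intestine for 1 of 40 collagens, where 0.0939% of all genes were called higher. Col8a1 was at 174, 197, 197 and 235 CPM in colon and 22.2 (lowest), 33.1 (median) and 56.0 (highest) CPM in small intestine. The groups lay far apart, with a log2 fold change of 2.42 ± 0.46 (SE, edgeR adjusted p = 0.0121). Since 4 mice gave both regions, a fit of their 8 libraries with the mouse as a block applies, and it called 5 collagens, all higher in colon: Col8a1, Col28a1, Col3a1, Col6a3 and Col6a2. That fit called 2.69% of all genes. Summed fibroblast markers were 23152 to 40063 CPM in these wild-type colon libraries and 4653 to 14416 CPM in small intestine, and mesothelial markers 13.8 to 72.6 CPM and 499 to 2355 CPM, without overlap in either list (edgeR, 0 of 9 and 0 of 4 called, with 3 at an unadjusted p under 0.05 in each). Their part in the collagen difference was not tested. In the unblocked fit the count was 0 without the colon library of mouse 19. In knockouts, 0 of 40 were called by edgeR (0.0268% of all genes were higher and 0.0537% lower), with 4 at an unadjusted p under 0.05 (6.66% of all genes) and 2 called by DESeq2 (0.863% of all genes in its fit), and the block left the count at 0. Summed fibroblast markers in knockouts were 8544 to 32692 CPM in colon and 7469 to 19433 CPM in small intestine, with overlap. There Col8a1 was at 57.0, 122, 150.3, 156 and 201 CPM in colon and 10.6, 29.2, 37.7 and 45.6 CPM in small intestine, a log2 fold change of 2.15 ± 0.51 (SE, edgeR adjusted p = 0.125), followed by Col28a1, which stood at 1.92 without colon mouse 1, with 2.95 ± 0.96 (SE, edgeR adjusted p = 0.445) and Col23a1 with 1.44 ± 0.85 (SE, edgeR adjusted p = 0.906).

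**Figure D3:**
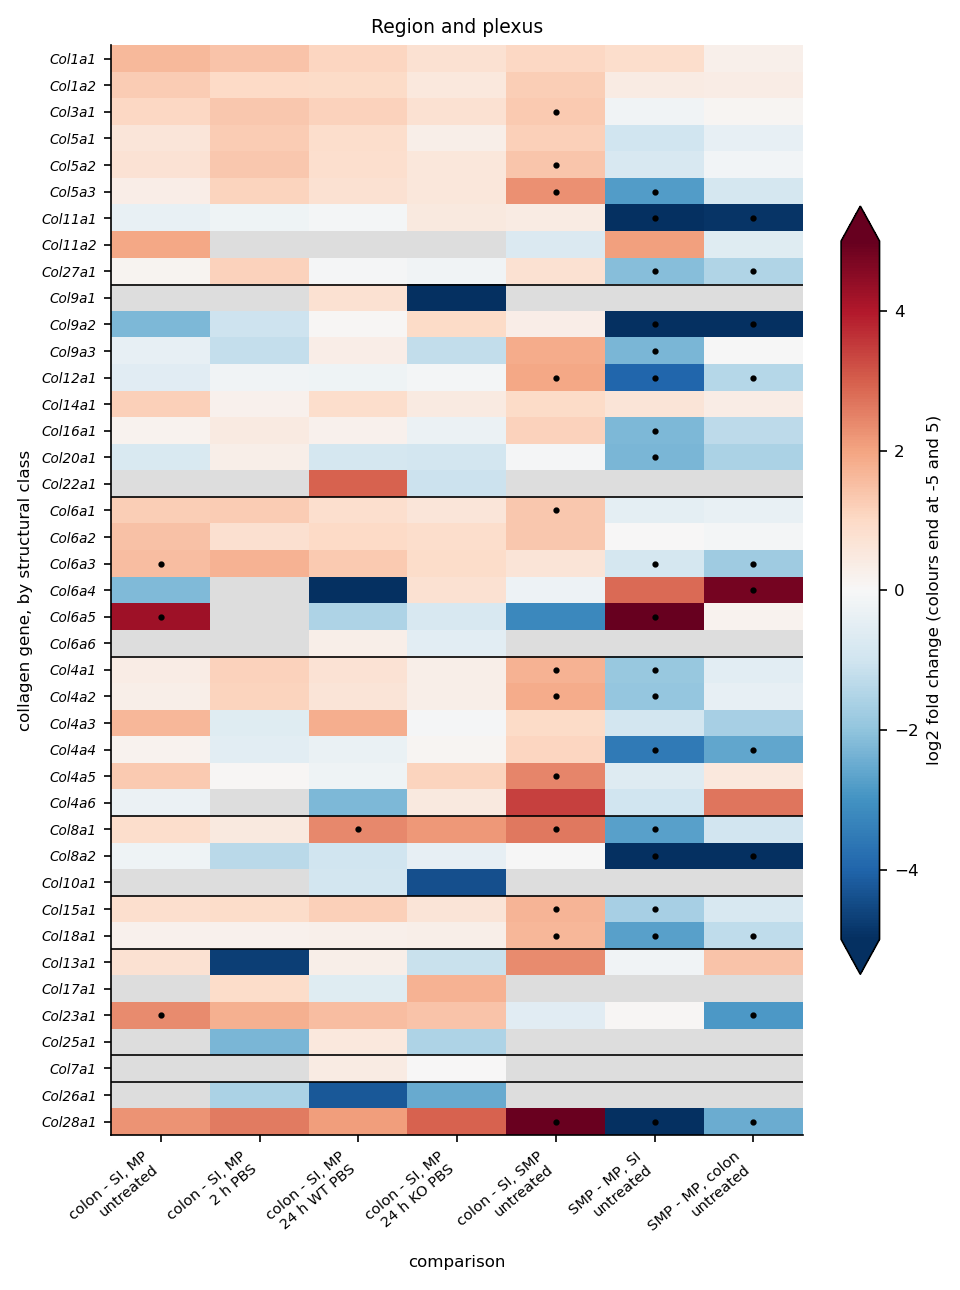
Log2 fold changes of the collagens (rows, grouped by structural class, with lines between classes) between regions and between plexuses (columns); colours end at 5 in either direction, a dot marks a call at adjusted p under 0.05 and grey a collagen that was not tested. The columns for submucosal against myenteric plexus are mostly negative, with 10 calls lower in colon and 17 in small intestine.

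The second question was what separates the submucosal from the myenteric plexus. In colon 10 of 33 collagens were lower in the submucosal plexus and 1 was higher. Across all genes 11.1% were called lower and 10.7% higher, so the collagens' calls lay nearly all on the lower side, and their median log2 fold change was -0.60 (all genes: -0.01). Among fibrillar chains, Col11a1, a minor chain that nucleates thin fibrils, had a log2 fold change of -4.90 ± 1.00 (SE, edgeR adjusted p = 0.00182) and Col27a1 -1.51 ± 0.39 (SE, edgeR adjusted p = 0.00906), whereas Col1a1, Col1a2 and Col3a1 passed in neither region. Col4a4, a type IV chain of specialised basement membranes, gave -2.61 ± 0.57 (SE, edgeR adjusted p = 0.00296).

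Col18a1 was at 122, 141, 157, 467 and 598 CPM in colon submucosal plexus and 655, 692, 695, 751 and 775 CPM in colon myenteric plexus. All submucosal libraries were below all myenteric ones (log2 fold change -1.27 ± 0.43 SE, edgeR adjusted p = 0.0406), though the call stood in only 3 of 10 fits that left out 1 library and not in a fit of these 2 groups alone (edgeR adjusted p = 0.0784). Col6a3 was at 46.6, 60.6, 61.8, 74.0 and 178 against 157, 202, 240.1, 312 and 517 CPM, where submucosal male 3 reaches into the myenteric range, with a log2 fold change of -1.76 ± 0.38 (SE, edgeR adjusted p = 0.00269). The FACIT Col12a1 was at 54.7, 55.3, 58.4, 122 and 179 CPM against 173, 207, 285, 285 and 315 CPM, with overlap only between submucosal male 3 and the lowest myenteric library (log2 fold change -1.43 ± 0.36 SE, edgeR adjusted p = 0.00705). Col9a2 was near 0 in the submucosal plexus, at 0, 0, 0, 1.14 and 1.40 CPM, and at 2.98, 6.52, 17.2, 27.2 and 91.6 CPM in the myenteric plexus. Its groups did not overlap, and the log2 fold change was -5.63 ± 0.95 (SE, edgeR adjusted p = 0.000476). Col23a1, transmembrane, fell by 2.88 on the log2 scale (edgeR adjusted p = 0.0039). Col8a2, with 2 counts in all submucosal libraries together and 393 in the myenteric ones, also passed (edgeR adjusted p = 0.00287). Col28a1 was the remaining lower chain. The 1 chain called higher, Col6a4, rests on 58 counts against 2 and was called in 4 of 10 fits that left out 1 library.

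In small intestine the same comparison called 17 of 33 collagens lower and 1 higher in the submucosal plexus, where 21.2% of all genes were called lower and 22.3% higher; the collagens' median was -1.01 (all genes: 0.06). Of the 10 lower in colon, 9 (90%) were also lower in small intestine, which is 52.9% of the 17. The overlap over all genes was not counted, so such sharing is not shown to be particular to collagens. The lower ones were 5 of 6 FACITs, 3 of 6 type IV chains, 3 of 9 fibrillar chains, both short-chain collagens, both multiplexins, 1 of 5 type VI chains and Col28a1. Col12a1 was at 10.4 (lowest), 24.6 (median) and 43.0 (highest) CPM in the submucosal plexus and 238 (lowest), 413 (median) and 497 (highest) CPM in the myenteric plexus. The groups were far apart, with a log2 fold change of -3.95 ± 0.36 (SE, edgeR adjusted p = 1.73e-07). Col9a2 showed a still larger ratio, 0 (lowest), 0.449 (median) and 0.974 (highest) CPM against 72.5 (lowest), 129 (median) and 225 (highest) CPM, with a log2 fold change of -8.19 ± 0.95 (SE, edgeR adjusted p = 1.8e-06).

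Of the basement membrane group in small intestine, Col18a1 was at 54.0 (lowest), 87.4 (median) and 163 (highest) CPM in submucosal and 322 (lowest), 479.5 (median) and 1224 (highest) CPM in myenteric plexus. These ranges did not overlap either (log2 fold change -2.70 ± 0.42 SE, edgeR adjusted p = 3.18e-05). Col4a1 was at 65.4 (lowest), 109 (median) and 182 (highest) CPM against 209 (lowest), 377 (median) and 759 (highest) CPM (log2 fold change -1.88 ± 0.36 SE, edgeR adjusted p = 0.000319), and Col4a2 at 30.3 (lowest), 50.1 (median) and 114 (highest) CPM against 156 (lowest), 213 (median) and 400.1 (highest) CPM (log2 fold change -1.94 ± 0.40 SE, edgeR adjusted p = 0.000545), both without overlap. Col4a4 fell by 3.53 on the log2 scale (edgeR adjusted p = 3.24e-05), Col28a1 fell by 5.17 (edgeR adjusted p = 2.58e-05), Col11a1 fell by 5.68 (edgeR adjusted p = 9.01e-05), Col27a1 fell by 2.13 (edgeR adjusted p = 0.000102) and Col5a3 fell by 2.81 (edgeR adjusted p = 0.000118). The chain that went the other way was Col6a5, a type VI chain of restricted distribution, at 3.82 (lowest), 10.8 (median) and 16.7 (highest) CPM in submucosal plexus and 0 in all myenteric libraries but 1, with 314 counts against 1 (log2 fold change 7.63 ± 1.22 SE, edgeR adjusted p = 4.79e-05). It passed the filter on low counts through this submucosal group, so the call was set by how Col6a5 entered the test.

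Many cell type markers moved between the plexuses too. In the submucosal plexus 6 of 6 smooth muscle markers were lower in either region, 4 of 7 glial markers were lower in colon and 7 of 7 in small intestine, and 4 of 4 mesothelial markers were lower in both, with Msln at 0 in all submucosal libraries of both regions. Leukocyte markers were higher, 6 of 6 in colon and 5 of 6 in small intestine, and so were 2 of 5 and 5 of 5 epithelial markers. Summed glial levels were 522 to 1899 CPM in small intestine submucosal plexus against 8966 to 13744 CPM in the myenteric plexus. Of the fibroblast markers 1 of 9 was lower in colon, and in small intestine 2 were higher and 1 lower. The part of these shifts in the collagen differences was not tested.

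For 2 collagens the plexus difference itself differed between the regions, by an interaction term in the same edgeR fit, where 1.19% of all genes were called. For Col12a1 the difference of the log2 fold changes, colon minus small intestine, was 2.52 ± 0.48 (SE, edgeR adjusted p = 0.0168): its submucosal level was nearer to the myenteric one in colon than in small intestine. For Col6a5 it was -7.46 ± 1.53 (SE, edgeR adjusted p = 0.0191), against colon means of 1.10 CPM in submucosal and 0.899 CPM in myenteric plexus. This value too was set by the small intestine submucosal group, through which Col6a5 passed the filter. Without colon myenteric male 3, 1 of the 2 calls was left, that of Col12a1.

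Genes that make, process and bind collagen were looked at beside the chains. Of 50 tested, 10 were higher and 1 lower in colon myenteric plexus, where 1.66% and 1.53% of all genes were, led by the fibril-binding proteins Dcn (2.07 ± 0.40 SE, edgeR adjusted p = 0.00854) and Dpt (2.48 ± 0.48 SE, edgeR adjusted p = 0.00854), both also on the fibroblast list, with the procollagen protease enhancer Pcolce (2.00 ± 0.41 SE, edgeR adjusted p = 0.0121) and the prolyl hydroxylase P4ha2 (1.71 ± 0.39 SE, edgeR adjusted p = 0.0206). In colon submucosal plexus 14 were higher and 0 lower than in small intestine (all genes: 3.82% and 1.36%), among them Postn, which binds fibrils (2.82 ± 0.30 SE, edgeR adjusted p = 1.33e-05), and the lysyl hydroxylase Plod2 (2.44 ± 0.45 SE, edgeR adjusted p = 0.00238). Between plexuses 4 were higher and 10 lower in submucosal colon (all genes: 10.7% and 11.1%), and 4 higher and 25 lower in submucosal small intestine (all genes: 22.3% and 21.2%), where P4ha3 (log2 fold change -9.12 ± 0.80 SE, edgeR adjusted p = 1.52e-07) and the collagen-binding Sparc (-2.43 ± 0.29 SE, edgeR adjusted p = 2.31e-06) were among the lower ones.

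The third question was whether LPS changed collagen messages within 2 h. No collagen was called by edgeR in either region, and none of the 32 tested had an unadjusted p under 0.05 in either, nor did DESeq2 call any. Of all 13107 genes, 1.1% were called in small intestine (1.08% higher and 0.0229% lower) and 0.778% in colon (0.74% higher and 0.0381% lower), so the test did find responses to LPS in these libraries. The median log2 fold change of the collagens was 0.13 in small intestine (all genes: -0.02) and 0.11 in colon (all genes: 0.00). Col3a1 was at 1420.2, 1852, 2729.9 and 3604 CPM after LPS and 1545, 1635, 3362 and 4228 CPM after PBS in colon, and at 383, 684, 834 and 1945 and 576, 788, 1206 and 1686 CPM in small intestine. The ranges lay over one another in both regions. Col4a1 was at 427, 446, 589.8 and 606 CPM after LPS and 442, 524, 666 and 713 CPM after PBS in colon, again overlapping, with a log2 fold change of -0.18 ± 0.28 (SE).

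The collagens with the smallest unadjusted p at 2 h were, in small intestine, Col5a1 with a log2 fold change of 0.74 ± 0.42 (SE, edgeR unadjusted p = 0.0989), Col17a1 with -3.63 ± 2.47 and Col23a1 with 1.06 ± 0.73, and in colon Col9a2 with -1.50 ± 0.78 (SE, edgeR unadjusted p = 0.0719), Col8a1 with -0.73 ± 0.46 and Col13a1 with 2.54 ± 1.86. The Col9a2 value rests on PBS male 2, at 115 CPM against 4.60 to 20.3 CPM in the other PBS colon libraries, and without it the log2 fold change was 0.20. The direction also turned for Col17a1 without PBS small intestine female 3 (to 2.75) and for Col13a1 without LPS colon female 3 (to -0.92). Col5a1 stood at 0.43 without LPS small intestine female 3, Col23a1 at 0.65 without LPS small intestine male 4 and Col8a1 at -0.41 without PBS colon male 4. The effect of LPS did not pass a test of difference between regions for any collagen (interaction term, 0 of 32 by edgeR, 0 with an unadjusted p under 0.05, 0 by DESeq2), the smallest unadjusted p being those of Col11a1 (-1.35 ± 0.91 SE, edgeR unadjusted p = 0.156, and -0.38 without PBS colon male 2), Col5a1 (-0.87 ± 0.60 SE, and -0.55 without LPS small intestine female 3) and Col9a2 (-1.52 ± 1.08 SE, and 0.17 without PBS colon male 2). These values do not show that LPS left collagens alike at 2 h: in counts simulated for the small intestine comparison, with 13107 genes, 17% of genes changed by 2 on the log2 scale and 1% of those changed by 1 were recovered.

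**Figure D4:**
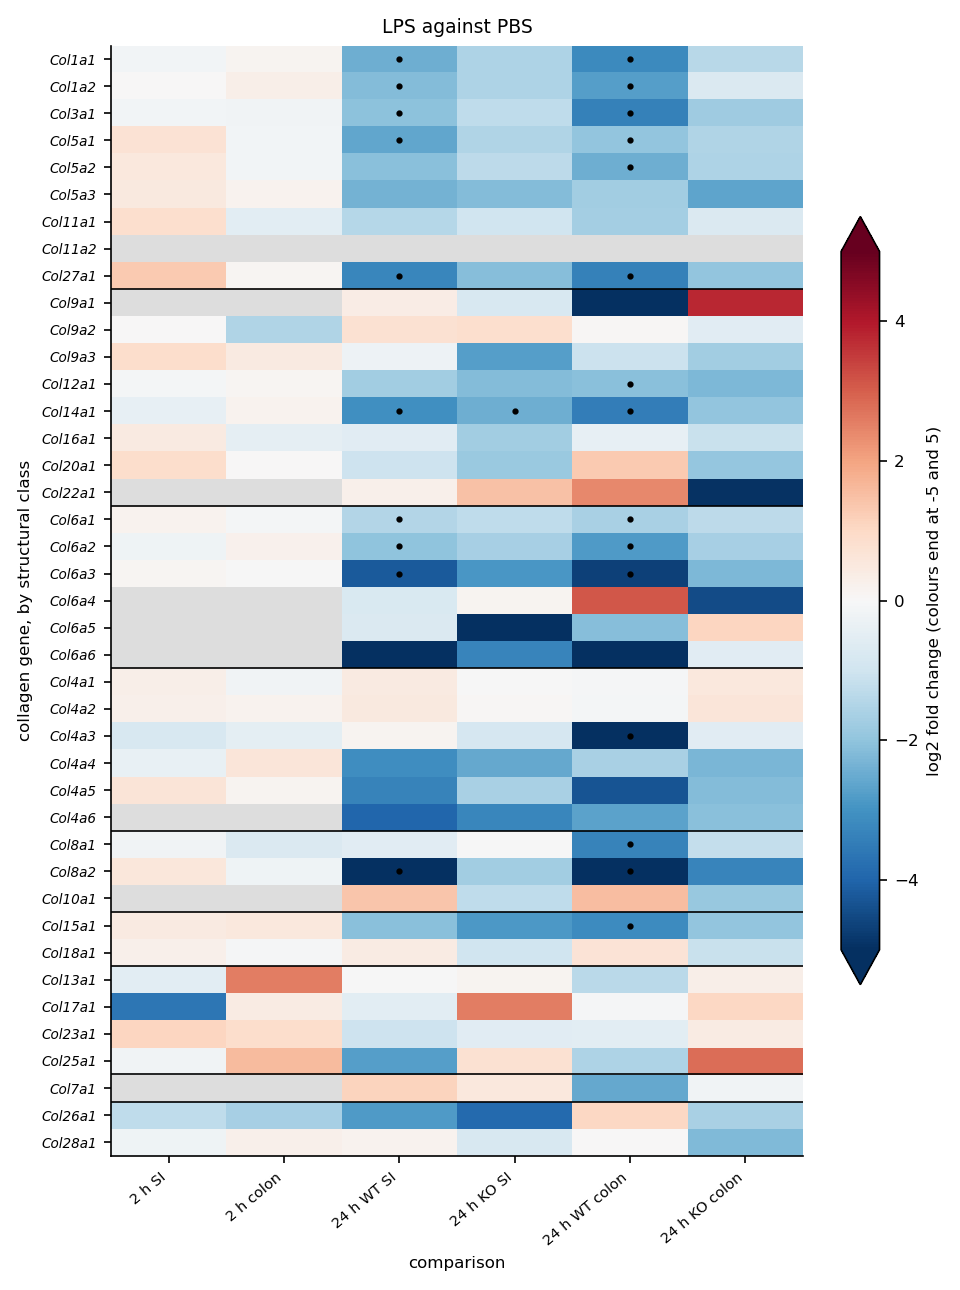
Log2 fold changes of the collagens (rows, by structural class) after LPS against PBS (columns: 2 h and 24 h, by region and genotype); colours end at 5 in either direction, a dot marks adjusted p under 0.05 and grey a collagen that was not tested. The 2 h columns hold no dot, and the 24 h wild-type columns hold 10 in small intestine and 15 in colon, all lower after LPS.

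At 24 h in wild-type mice, 6 of 8 fibrillar and 3 of 6 type VI chains tested were lower after LPS in colon, and 5 of 8 and 3 of 6 in small intestine, where several of the calls were lost on leaving out 1 library. In colon 15 of 40 collagens were lower and 0 higher, where 7.96% of all 14903 genes were called, 4% lower and 3.96% higher, and the collagens' median log2 fold change was -1.84 (all genes: -0.03). They comprised 6 of 8 fibrillar chains, 3 of 6 type VI chains, 2 of 3 short-chain collagens, 2 of 8 FACITs, 1 of 6 type IV chains and 1 of 2 multiplexins. Col3a1 was at 78.9, 364, 366, 394 and 527 CPM in the 5 LPS libraries and at 3039, 3419, 3745 and 4102 CPM in the 4 PBS libraries. The highest LPS library lay far below the lowest PBS library, and the log2 fold change was -3.37 ± 0.64 (SE, edgeR adjusted p = 0.00132). The type I chains did the same: Col1a1 was at 16.7, 108, 138, 208 and 364 CPM after LPS and 1293, 1305, 1642 and 1819 CPM after PBS, a log2 fold change of -3.18 ± 0.73 (SE, edgeR adjusted p = 0.00666). Col1a2 was at 44.1, 58.2, 197, 209 and 380.1 CPM and 1007, 1032, 1175 and 1606 CPM, a log2 fold change of -2.76 ± 0.63 (SE, edgeR adjusted p = 0.00679). Neither type I chain overlapped between the groups.

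Of the type VI chains in wild-type colon, Col6a2 was at 52.4, 117, 117, 135 and 232 CPM after LPS and 711, 805, 996 and 1161 CPM after PBS, again without overlap (log2 fold change -2.81 ± 0.53 SE, edgeR adjusted p = 0.00121). Col6a3 fell further, from 457 ± 106 CPM (SD, n = 4) to 17.7 ± 14.5 CPM (SD, n = 5), a log2 fold change of -4.68 ± 0.99 (SE, edgeR adjusted p = 0.00371). Its ratio to Col6a1 per length, at 0.189 to 0.252 after PBS, was 0 to 0.0626 after LPS. Col14a1, a FACIT that regulates fibril width, went from 218 ± 68.3 CPM to 20.0 ± 9.23 CPM (SD, n = 4 and 5), with a log2 fold change of -3.45 ± 0.57 (SE, edgeR adjusted p = 0.000302). Col8a1 was at 4.77, 7.60, 13.4, 32.4 and 40.3 CPM after LPS and 174, 197, 197 and 235 CPM after PBS and had the smallest p of all collagens (log2 fold change -3.35 ± 0.51 SE, edgeR adjusted p = 0.00014). Its partner Col8a2 fell by 5.90 on the log2 scale (edgeR adjusted p = 0.00654). The only type IV chain called was Col4a3, scarce throughout, with 0 counts in 5 LPS libraries and 184 in 4 PBS libraries, at least 4.41-fold lower against a floor of 3 counts per library. The remaining called chains were Col5a1, Col5a2, Col6a1, Col12a1, Col15a1 and Col27a1. Each of the 10 chains with the smallest adjusted p was called in all 9 fits that left out 1 library, and Col27a1 and Col5a2 in 2 and 3 of them. With the division of mouse numbers (up to 10, or 11 and above) as a covariate, Col5a1 (edgeR adjusted p = 0.0691), Col5a2 (edgeR adjusted p = 0.125), Col6a1 (edgeR adjusted p = 0.0853) and Col27a1 (edgeR adjusted p = 0.0608) were not called. Col5a1, Col5a2, Col6a1 and Col15a1 were not called in a fit of these 2 groups alone (edgeR adjusted p from 0.0548 to 0.135).

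The main basement membrane chains were not called. Col4a1 was at 89.1, 439, 864, 1089.8 and 1112 CPM after LPS and 651, 693, 803 and 848 CPM after PBS in wild-type colon, where the LPS libraries span the PBS range, and its log2 fold change was -0.06 ± 0.48 (SE, edgeR adjusted p = 0.959). Col4a2 gave -0.10 ± 0.43 (SE, edgeR adjusted p = 0.916). Col18a1 was at 147, 393, 604, 614 and 1146 CPM and 296, 315, 411 and 417 CPM (log2 fold change 0.69 ± 0.50 SE, edgeR adjusted p = 0.417), also overlapping. Whether the response of type IV chains differs from that of fibrillar chains was not tested.

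In wild-type small intestine 10 of 40 collagens were lower after LPS and 0 higher, where 7.17% of all genes were called, 2.99% lower and 4.18% higher, with a median of -1.44 (all genes: -0.13). All 10 were also among the 15 lower in colon (66.7% of those), to which some of the same mice contributed. Sharing between regions was not counted over all genes, so it is not shown to be particular to collagens. The 10 were 5 of 8 fibrillar chains, 3 of 6 type VI chains, Col14a1 and Col8a2, and no type IV chain. Col3a1 was at 53.4, 114, 443 and 932 CPM after LPS and 514 (lowest), 1633 (median) and 2678 (highest) CPM after PBS. Here the groups overlap, as PBS mouse 9 lies below LPS mouse 13, and the log2 fold change was -2.05 ± 0.63 (SE, edgeR adjusted p = 0.0411). Col1a1 was at 31.9, 95.2, 142 and 261 CPM and 152 (lowest), 828 (median) and 1255 (highest) CPM, a log2 fold change of -2.45 ± 0.73 (SE, edgeR adjusted p = 0.0365). Col1a2 was at 30.4, 109, 136 and 285 CPM and 197 (lowest), 668 (median) and 921 (highest) CPM, a log2 fold change of -2.16 ± 0.64 (SE, edgeR adjusted p = 0.0335), and Col6a2 at 79.4, 102, 117 and 163 CPM and 135 (lowest), 508 (median) and 769 (highest) CPM, a log2 fold change of -2.02 ± 0.53 (SE, edgeR adjusted p = 0.0159). In each of these 3, PBS mouse 9 again fell within the LPS range and the other PBS libraries did not. PBS mouse 9 gave the 1 library of its group from a mouse numbered up to 10, with 19.0% of counts on mitochondrial genes.

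The wider gaps in small intestine were those of less abundant chains. Col14a1 was at 14.4 ± 16.0 CPM after LPS and 120.2 ± 29.4 CPM after PBS (SD, n = 4 and 6; log2 fold change -3.06 ± 0.59 SE, edgeR adjusted p = 0.000925). Col6a3 was at 10.0 ± 6.62 CPM against 186 ± 87.4 CPM (log2 fold change -4.20 ± 1.04 SE, edgeR adjusted p = 0.00987), and Col5a1, which sets the diameter of type I fibrils, at 14.8 ± 10.3 CPM against 89.4 ± 27.9 CPM (log2 fold change -2.59 ± 0.58 SE, edgeR adjusted p = 0.00412). None of these 3 overlapped between the groups. Col8a2, with 8 counts in the LPS libraries against 1195, fell by 5.65 on the log2 scale (edgeR adjusted p = 0.0084), Col27a1 fell by 3.26 (edgeR adjusted p = 0.0485) and Col6a1 fell by 1.47 (edgeR adjusted p = 0.0402). Col4a1 was at 356, 421, 693 and 1050.3 CPM after LPS and 353 (lowest), 456 (median) and 564 (highest) CPM after PBS (log2 fold change 0.46 ± 0.45 SE, edgeR adjusted p = 0.62). The count of 10 was 4 without LPS mouse 3 or LPS mouse 8, 5 without LPS mouse 16, PBS mouse 19 or PBS mouse 22, and 6 without PBS mouse 23 or PBS mouse 24. Of 10 fits that each left out 1 library, all kept Col14a1, Col5a1, Col6a3 and Col8a2, while Col6a2 was kept in 8, Col1a2 in 5, Col1a1 and Col3a1 in 3, Col6a1 in 2 and Col27a1 in 0. Without the filter on low counts Col27a1, Col3a1 and Col6a1 were not called (edgeR adjusted p = 0.0606, 0.0559 and 0.0573). Nor was Col27a1 with sex (edgeR adjusted p = 0.0518) or the division of mouse numbers (edgeR adjusted p = 0.0519) as a covariate. Col6a1 was not called with the latter (edgeR adjusted p = 0.103), and Col3a1 was not in a fit of these 2 groups alone (edgeR adjusted p = 0.0904).

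**Figure D5:**
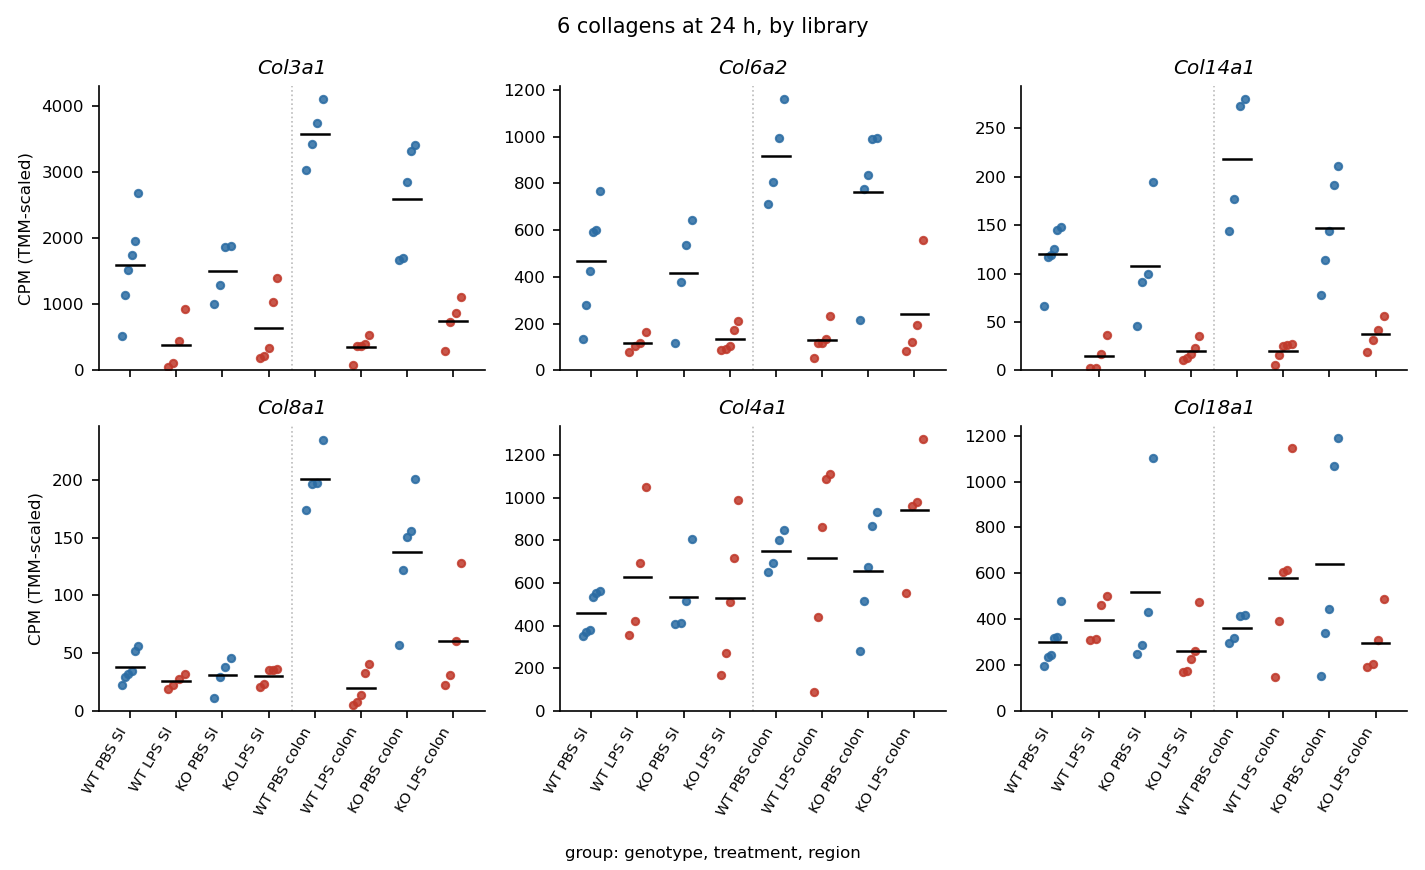
Levels of 6 collagens at 24 h (y axis: CPM, linear scale from 0) by genotype, region and injection (x axis); blue points are PBS libraries, red points LPS libraries, and bars group means. In wild-type colon the red points of Col3a1, Col6a2, Col14a1 and Col8a1 all lie below the blue points, and those of Col4a1 and Col18a1 overlap with them.

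Several other measures moved with these differences. Among mice numbered 11 and above, which leave 2 LPS libraries in either wild-type group, 12 collagens were lower in wild-type colon, and in small intestine 11 were lower and 1, Col4a1, higher (log2 fold change 0.93, edgeR adjusted p = 0.0363). Those fits called 9.57% of all genes in colon and 9.68% in small intestine. Col3a1 then had a log2 fold change of -3.21 in colon (edgeR adjusted p = 0.000303) and -1.33 in small intestine (edgeR adjusted p = 0.0509), so its call in small intestine did not hold. Col27a1 was also no longer called in small intestine (edgeR adjusted p = 0.0626). In colon Col8a2 (edgeR adjusted p = 0.064), Col12a1 (edgeR adjusted p = 0.105) and Col27a1 (edgeR adjusted p = 0.061) were not called. The other 12 of the 15 were. Summed fibroblast markers were 2174 to 16848 CPM after LPS and 23152 to 40063 CPM after PBS in wild-type colon, where 4 of 9 were called lower. In wild-type small intestine they were 1989 to 15519 CPM against 4653 to 14416 CPM, where 0 of 9 were called by edgeR, with 2 at an unadjusted p under 0.05. Smooth muscle markers gave 0 of 6 calls by edgeR in both regions, with 1 in small intestine and 2 in colon at an unadjusted p under 0.05. Summed mesothelial markers were 145 to 321 CPM after LPS and 499 to 2355 CPM after PBS in wild-type small intestine, without overlap, where 0 of 4 were called by edgeR, with 3 at an unadjusted p under 0.05. Summed markers of interstitial cells of Cajal, the pacemaker cells of the gut, were 24.5 to 150 CPM against 151 to 457 CPM in wild-type colon, also without overlap (edgeR, 0 of 3 called, with 2 at an unadjusted p under 0.05). Pericyte markers there had medians of 71.8 CPM after LPS and 410 CPM after PBS and overlapped (edgeR, 0 of 4 called, with 2 at an unadjusted p under 0.05). The part of these shifts, and of the mitochondrial share, in the collagen differences was not tested.

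Some of the genes that make, process or bind collagen also differed in the same samples, though most were not called. In wild-type colon 12 of 53 genes tested were lower and 0 higher, where 4% and 3.96% of all genes were. Serpinh1, which encodes the collagen chaperone HSP47, was at 35.1 ± 17.2 CPM after LPS and 333 ± 31.7 CPM after PBS (SD, n = 5 and 4; log2 fold change -3.25 ± 0.54 SE, edgeR adjusted p = 0.000301). The prolyl hydroxylase subunit P4ha1 went to 13.3 ± 7.81 CPM from 137 ± 29.3 CPM (log2 fold change -3.36 ± 0.74 SE, edgeR adjusted p = 0.00496), Pcolce to 81.1 ± 82.4 CPM from 767 ± 164 CPM (log2 fold change -3.24 ± 0.65 SE, edgeR adjusted p = 0.00216) and the fibril-binding Ogn to 12.9 ± 10.5 CPM from 137 ± 21.7 CPM (log2 fold change -3.40 ± 0.73 SE, edgeR adjusted p = 0.00397). In wild-type small intestine 5 were lower and 2 higher (all genes: 2.99% and 4.18%), with Serpinh1 at 47.9 ± 32.1 CPM after LPS and 239.9 ± 47.6 CPM after PBS (log2 fold change -2.33 ± 0.54 SE, edgeR adjusted p = 0.00585). Ogn fell there by 2.97 on the log2 scale (edgeR adjusted p = 0.0111), Tnxb fell by 2.61 (edgeR adjusted p = 0.0236) and Podn fell by 4.25 (edgeR adjusted p = 0.0349). In knockouts Postn alone passed, lower in small intestine (-2.30 ± 0.46 SE, edgeR adjusted p = 0.00769), where 0.188% of all genes were called lower and 0.53% higher. In knockout colon 0 of 53 passed (all genes: 0.0805% lower and 0.637% higher). There 7 of the 53 had an unadjusted p under 0.05 by edgeR, which 12.4% of all genes had.

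In knockouts few collagens passed the test. In small intestine 1 of 40 collagens was lower after LPS, where 0.188% of all genes were called lower and 0.53% higher. It was Col14a1, at 10.6, 13.0, 16.8, 23.4 and 35.8 CPM after LPS and 45.8, 91.7, 99.2 and 195 CPM after PBS. The groups did not overlap, and the log2 fold change was -2.43 ± 0.55 (SE, edgeR adjusted p = 0.0245). A further 16 collagens had an unadjusted p under 0.05, which 11.5% of all genes had. The median was -1.42 (all genes: -0.05), and all 8 fibrillar chains were fitted below 0. DESeq2 called 8 collagens and 2.83% of all genes in its fit. The count was 5 without LPS mouse 11, 2 without LPS mouse 21, and 0 without LPS mouse 6, 10 or 17 or PBS mouse 12 or 15. Among mice numbered 11 and above it was 2 (Col14a1 and Col6a3, with 0.6% of all genes called), and in the fit of these 2 groups alone it was 0. Summed fibroblast markers were 2027 to 11433 CPM after LPS and 7469 to 19433 CPM after PBS.

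In knockout colon 0 of 40 were called by edgeR, where 0.0805% of all genes were called lower and 0.637% higher. There 17 had an unadjusted p under 0.05, which 12.4% of all genes had. DESeq2 called 5 (Col12a1, Col5a3, Col14a1, Col6a2 and Col8a2) and 2.62% of all genes in its fit. The median was -1.52 (all genes: -0.07). Again all 8 fibrillar chains were fitted below 0. Col3a1 was at 294, 731, 864 and 1112 CPM after LPS and 1672, 1697, 2845, 3319.7 and 3412 CPM after PBS, without overlap (log2 fold change -1.79 ± 0.63 SE, edgeR adjusted p = 0.222). Closest to the threshold were Col12a1, with -2.24 ± 0.62 (SE, edgeR adjusted p = 0.0888), Col14a1, with -1.98 ± 0.57 (SE, edgeR adjusted p = 0.102), and Col5a3, with -2.62 ± 0.77 (SE, edgeR adjusted p = 0.115). The count became 2 without LPS mouse 11 (Col6a2 and Col5a3), and 4 among mice numbered 11 and above (Col14a1, Col3a1, Col5a2 and Col6a3, with 0.606% of all genes called), where Col14a1 had a log2 fold change of -2.05 (edgeR adjusted p = 0.0179). Fibroblast markers were not called in knockouts of either region (edgeR, 0 of 9 in each, with 3 and 0 at an unadjusted p under 0.05), with summed levels in colon of 4174 to 36361 CPM after LPS and 8544 to 32692 CPM after PBS.

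The last question was whether Gpr37 loss altered collagen messages or their response to LPS. After PBS 0 of 40 collagens differed between knockout and wild type by edgeR in small intestine or colon, with 1 and 3 at an unadjusted p under 0.05 (1.72% and 4.22% of all genes) and 0 by DESeq2, and 0% of all genes were called in either. The smallest unadjusted p among collagens whose average log2 CPM reached 1 was that of Col16a1 in small intestine (0.89 ± 0.52 SE, edgeR unadjusted p = 0.0984) and of Col18a1 in colon (0.83 ± 0.51 SE, edgeR unadjusted p = 0.112). The latter turned to -0.24 among mice numbered 11 and above, and Col16a1 stood at 0.12 without knockout PBS mouse 7. Col3a1 after PBS was at 1003, 1289, 1859 and 1887 CPM in knockout small intestine, within the wild-type range given above.

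After LPS, 0 of 40 collagens were called between genotypes by edgeR in small intestine (0.0134% of all genes were called, 0.00671% higher and 0.00671% lower), with 3 at an unadjusted p under 0.05, and 0 of 40 in colon (0.262% of all genes higher, 0.168% lower), with 10 at an unadjusted p under 0.05. Across all genes 7.63% and 16.4% had such a p. DESeq2 called 1 (Col8a2) and 2 (Col8a1 and Col4a3), with 0.958% and 4.03% of all genes in its fits. In colon 29 of 40 were fitted above 0, with a median of 0.85 (all genes: 0.00). Col8a1 was at 22.6, 31.1, 60.1 and 128 CPM in knockout and 4.77, 7.60, 13.4, 32.4 and 40.3 CPM in wild-type LPS colon, with overlap (log2 fold change 1.62 ± 0.49 SE, edgeR adjusted p = 0.112), followed by Col1a2 (1.61 ± 0.61 SE, edgeR adjusted p = 0.195) and Col8a2 (3.27 ± 1.29 SE, edgeR adjusted p = 0.208). Leaving out wild-type LPS mouse 16 gave 1 call, that of Col8a1. Without knockout LPS mouse 11, Col8a1 stood at 0.93 and Col8a2 at 1.78. Among mice numbered 11 and above Col8a1 stood at 0.92. With the division of mouse numbers as a covariate Col1a2 stood at 1.01. None of these was called either. Fibroblast markers gave 0 of 9 calls in this comparison by edgeR (3 at an unadjusted p under 0.05); the list's median log2 fold change was 1.65, and its part was not tested. In small intestine Col8a2 (3.99 ± 1.29 SE, edgeR adjusted p = 0.369), Col5a1 (1.36 ± 0.56 SE) and Col25a1 (3.06 ± 1.73 SE) had the smallest p.

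The difference between the LPS responses of the genotypes was tested as an interaction. It was called for 0 of 40 collagens in small intestine (edgeR, 1 at an unadjusted p under 0.05, with 3.88% of all genes) and 0 of 40 in colon (8 at an unadjusted p under 0.05, with 13.5% of all genes), by DESeq2 for 0 in both, and for 0% of all genes in either region. The smallest p in colon was that of Col8a1, whose log2 fold change with LPS was 2.17 ± 0.68 higher in knockouts (SE, edgeR adjusted p = 0.176), followed by Col18a1 (-1.80 ± 0.72 SE, edgeR adjusted p = 0.264) and Col1a2 (2.04 ± 0.86 SE, edgeR adjusted p = 0.294), and in small intestine that of Col8a2 (3.92 ± 1.61 SE, edgeR unadjusted p = 0.0206). Among mice numbered 11 and above these values were 1.27 for Col8a1, -1.17 for Col18a1 and 1.16 for Col1a2 in colon and 2.38 for Col8a2 in small intestine. With the division of mouse numbers as a covariate Col1a2 stood at 0.95. None of these was called. For Col3a1 the interaction was 1.58 ± 0.85 (SE, edgeR adjusted p = 0.42) in colon and 0.80 ± 0.84 (SE) in small intestine. The larger number of calls in wild type is therefore not shown to be a difference between genotypes.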

How the data were processed

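RNA was extracted with a micro column kit and turned into Smart-seq2 libraries without molecular identifiers, per the labels' protocols, so counts are reads, not molecules. The authors deposited raw counts per gene symbol in tables of the whole series, and these whole-number counts were used as deposited. Per the submitters' processing notes, Trim Galore 0.4.4, STAR 2.5.3 and the build GRCm38 were used and DESeq2 is named. The counting program, the annotation and whether strand was used are not given in the sources used here, so reads of overlapping genes, such as the head-to-head type IV pairs, could have been shared or dropped.

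Each of the 3 experiments was fitted on its own with edgeR 4.0.16 in R 4.3.3, over all its groups, with genes filtered by edgeR's rule on low counts, trimmed-mean scaling, the quasi-likelihood test and Benjamini-Hochberg adjustment over all genes tested (14090 untreated, 13107 at 2 h, 14903 at 24 h). There were 21 comparisons, each with a threshold of 0.05. Of the 44 collagens 33, 32 and 40 passed the filter in the untreated, 2 h and 24 h experiments. In the untreated libraries the 11 left out were Col2a1, Col6a6, Col7a1, Col9a1, Col10a1, Col17a1, Col19a1, Col22a1, Col24a1, Col25a1 and Col26a1, and at 24 h the 4 left out were Col2a1, Col11a2, Col19a1 and Col24a1. A filter on low counts keeps a gene that is present in 1 group only, and such genes had to differ. In the untreated experiment Col6a5 passed it through small intestine submucosal plexus. Standard errors were derived from the quasi-likelihood statistic. Levels are CPM with the trimmed-mean scaling; merged exon lengths came from the GENCODE M21 annotation of GRCm38 and upstream windows from RefSeq (GRCm38.p6).

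Total counts were 2547296 to 9002546 in untreated, 1990744 to 7883251 in 2 h and 2882539 to 33283346 in 24 h libraries. In simulated counts with 200 changed genes a comparison, 71% of genes changed by 2 on the log2 scale were recovered for the plexuses of small intestine (14090 genes) and 56%, 40% and 51% for LPS at 24 h in wild-type small intestine, knockout small intestine and knockout colon (14903 genes). The changed genes were drawn from the more abundant ones by the limit given above, and wild-type colon at 24 h was not simulated. No pair of replicates held identical values (143 pairs compared), and all pairs differed by more than sampling noise. Nothing in the labels of the untreated and 2 h libraries says which came from separate animals, so their p-values measure the spread between these samples.

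For each comparison up to 8 called collagens a direction were named by adjusted p, or, with none called, up to 3 by unadjusted p among those whose average log2 CPM reached 1; values by library were given for up to 4 abundant ones. The members and all lists were chosen with earlier results of these data known, and the 4 printed windows after their values were seen. Replicate numbers of untreated and 2 h libraries are not stated to mark an animal and were not taken as pairs; at 24 h colon and small intestine libraries of a mouse number come from the same animal, and 4 mice a genotype gave both after PBS. Alternatives were DESeq2 1.42.0, its size factors, no filter, sex or mouse-number covariates, mice numbered 11 and above, only the compared groups, blocks, and each library left out. The name of the reporter allele is not reported here.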

Additional observations from a re-analysis of the deposited data

Results flagged for a closer look

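In 62 groups of 4 to 6 libraries (16 for the collagen share and 46 for collagens printed by library), 4 had an end value farther from the rest than Dixon's criterion allows, where chance alone marks about 1 group in 20. Col6a3 in untreated colon submucosal plexus was 177.73 CPM in male 3, against a nearest value of 73.969 CPM. Col6a5 in untreated small intestine myenteric plexus was 0.14268 CPM in female 3 and 0 in the other libraries, which is 1 read. Col6a5 in untreated colon myenteric plexus was 3.506 CPM in male 3, against a nearest value of 0.52529 CPM, and this library carries the call of Col6a5 between regions. Col9a2 in untreated colon myenteric plexus was 91.618 CPM in female 2, against a nearest value of 27.2 CPM.

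For 2 collagens the difference between plexuses differed between colon and small intestine by an interaction test: Col12a1, with a difference of the log2 fold changes of 2.52 (edgeR adjusted p = 0.0168), and Col6a5, with -7.46 (edgeR adjusted p = 0.0191). Col6a5 passed the filter on low counts through small intestine submucosal plexus, so its value was set by that group. The levels are given with the plexus comparison above, and the shifts in smooth muscle, glial and mesothelial markers stand beside them there.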

How the results depend on the processing

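DESeq2's size factors within edgeR, no filter on low counts and sex as a covariate kept the count of called collagens within 1.5 times in all 21 comparisons, though single calls ended (Col6a5 between regions in myenteric plexus under all 3 settings; Col27a1, Col3a1 and Col6a1 after LPS in wild-type small intestine without the filter, and Col27a1 also with sex). Counts moved with DESeq2's own test for colon against small intestine in untreated myenteric plexus (6, of which 5 were higher), 2 h PBS (4), wild-type 24 h PBS (2) and knockout 24 h PBS (2), for LPS at 24 h in wild-type small intestine (17), knockout small intestine (8) and knockout colon (5), and for knockout against wild type after LPS in small intestine (1) and colon (2). Of all genes in its fits DESeq2 called 5.44%, 3.02%, 0.968%, 0.863%, 10%, 2.83%, 2.62%, 0.958% and 4.03%, in that order. With the mouse number division as a covariate the count was 2 for LPS in knockout small intestine, 3 for LPS in knockout colon and 1 for colon against small intestine in knockouts; among mice numbered 11 and above these were 2, 4 and 1, and colon against small intestine in wild type was 2. In fits of the compared groups alone, LPS in knockout small intestine gave 0 and colon against small intestine in wild-type PBS mice gave 5. The cause was not tested.

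Leaving out 1 library at a time gave these ranges of the count: untreated colon against small intestine 0 to 4 in myenteric and 5 to 12 in submucosal plexus; submucosal against myenteric 9 to 14 in colon and 16 to 20 in small intestine, with 1 to 3 for their interaction; 2 h region 0 to 1; 24 h LPS 4 to 9 in wild-type and 0 to 5 in knockout small intestine, 11 to 16 in wild-type and 0 to 2 in knockout colon; knockout against wild type after LPS in colon 0 to 1; and wild-type region after PBS 0 to 1. All other comparisons, LPS at 2 h among them, stayed at 0. The sign turned for Col9a2 at 2 h without colon PBS male 2 (0.20 for LPS in colon, with the other fits down to -2.08, and 0.17 for the interaction, with others down to -2.11), for Col17a1 without small intestine PBS female 3 (2.75, others down to -4.64), for Col13a1 without colon LPS female 3 (-0.92, others up to 3.09), and for Col18a1 between genotypes after PBS in colon among mice numbered 11 and above (-0.24).

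A replicate block by sex and number gave 3, 12, 12 and 21 calls for the untreated region (myenteric, submucosal) and plexus (colon, small intestine) comparisons, 2 for the interaction, 6 for the 2 h region comparison and 0 for LPS at 2 h. Those fits called 1.75%, 5.66%, 19.7%, 44.7%, 1% and, for the 2 h region, 0.793% of all genes. The 2 of the interaction were Col12a1 and, not called without the block, Col23a1 (adjusted p = 0.0491), while Col6a5 was not called; nor were Col6a5 between regions in myenteric plexus, Col6a4 between plexuses in colon (adjusted p = 0.0737) or Col9a3 in small intestine (adjusted p = 0.0793). The 6 at 2 h, all higher in colon, were Col3a1, Col6a3, Col28a1, Col4a1, Col5a1 and Col1a1 (adjusted p from 0.0166 to 0.0471). Same-numbered libraries correlated at -0.0965 to 0.309, on average more than other pairs in each comparison but not over 0.1 in every pair of any, so the pairing was not taken as given. The block by mouse gave 5 calls for wild-type region after PBS and 0 in knockouts. For LPS and genotype at 24 h, no paired analysis was possible because no mouse number is shared between treatments or genotypes.

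Low depth limits scarce chains most: Col6a5, Col6a4, Col4a3 and Col8a2 rest on few counts in 1 of the groups. The lack of calls at 2 h is no evidence of equal levels, and the recovery given above covers only abundant genes in small intestine.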
